A study of Homo sapiens with 24 samples.

Results

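ELF-153, an established human acute myeloid leukaemia cell line, was compared after decitabine and without it at 96 h. Decitabine is a cytidine analogue that enters replicating DNA and traps the enzymes that copy DNA methylation. The 6 libraries described here, 3 treated and 3 untreated, were those whose labels give this line and this harvest time, of 24 libraries in the study. Treated cells received 100 nM drug afresh with every daily change of medium for 4 days, and untreated cells received none. All cultures of both groups, and of the second line UCSD-AML1, grew in RPMI with 20% serum and 5 ng/ml human GM-CSF, a cytokine that drives myeloid growth. The libraries were made from total RNA after removal of ribosomal RNA with a stranded paired-end kit. The submitters describe the libraries of a group as technical triplicates, so every p-value below measures spread between libraries and not between repeats of the experiment. For genes and repeats that spread is 1 estimate shared by the 4 groups at 96 h, those of UCSD-AML1 included. Each gene is given in scaled reads, that is, the deposited value per transcript summed over the transcripts of the gene. Levels were not divided by length, so values are compared between libraries and not between genes.

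DNA methylation at CpG-rich promoters keeps germ-cell genes and many retroviral repeats silent in somatic cells. When the maintenance enzyme is trapped, each round of replication dilutes the mark, and genes held silent by it can be transcribed. Double-stranded RNA from repeats can be read by cytosolic sensors, which switch on type I and type III interferon and, through receptor-bound kinases and a complex that holds STAT2 and IRF9, the interferon-stimulated genes. Low-dose decitabine is also known as an agent under which leukaemia cells can slow their division and take on traits of mature blood cells.

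Assigned reads ran from 13.15 to 17.76 Mreads (mega-reads) in the untreated libraries and from 19.43 to 24.25 Mreads in the treated ones. Mitochondrial ribosomal RNA took 13.1 to 35% of the untreated and 37.3 to 49.8% of the treated reads. The groups did not overlap in this share (2-sided exact permutation p = 0.1, the smallest that 3 against 3 can give), so its part in any gene's change cannot be told apart from treatment. For that reason, where a gene list's count higher or lower is 3 or more in either fit and moves by over 1.5 times, the count with this share as a covariate is given beside it. Reads outside the mitochondrial genome were similar in number, at 10.58 to 12.73 Mreads untreated and 11.47 to 12 Mreads treated. Untreated cells showed the progenitor genes CD34, 319, 378 and 262 scaled reads, and KIT, 150.1, 474 and 249.7, and the megakaryocyte integrin ITGA2B, 377, 314 and 262. The myeloperoxidase gene MPO was at 0 reads in all 3. The surface marker CD33, the transcription factor GATA2 and the B-lineage factor PAX5, 589, 433 and 454, were also read in every untreated library.

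Far more genes were strongly higher than strongly lower after decitabine. Of 17609 genes tested with limma, 3642 (20.7%) were higher and 2271 (12.9%) lower at an adjusted p below 0.05. Every list count below is to be read beside these shares. Among those at least 16-fold changed, 399 were higher and 8 lower, and among those at least 64-fold changed, 95 were higher and 0 lower. The median log2 change of all genes was 0.17, and scaling the libraries on their upper quartile lowered it to 0.07. In all 3 treated libraries above all 3 untreated ones were 4388 genes (24.9%), and below them 3175 (18%). Of the genes tested, 856 passed the filter on low values only because the treated ELF-153 libraries reached it. A rise among these could hardly be missed, and their p-values are no support for it. Where 3 or more members of a list passed only through treated ELF-153 libraries, their number is given. These numbers leave out genes, such as DAZL, that passed through treated libraries of both lines but through no untreated one. The p-values of such genes are no support for a rise either. With the mitochondrial ribosomal share as a covariate, 2126 genes were higher and 1350 lower. In these bulk libraries, fewer cells of a kind and less RNA per cell cannot be told apart.

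**Figure D1:**
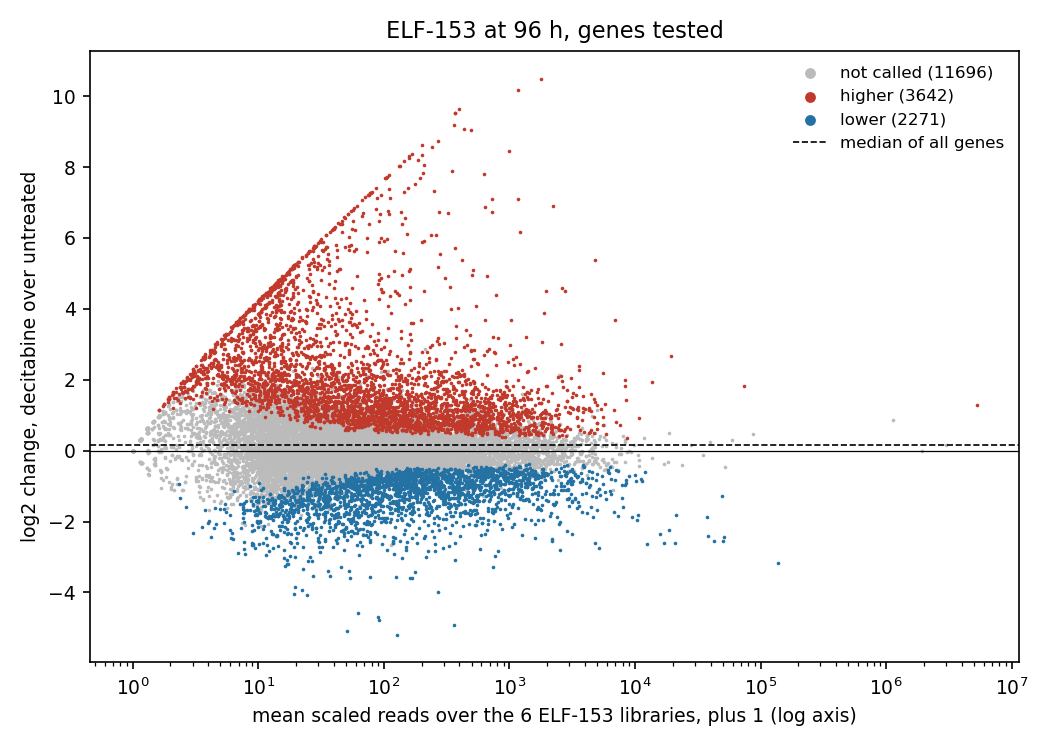
Log2 change with decitabine against mean level (log axis) of the 17609 genes tested, in scaled reads over the 6 ELF-153 libraries, with 3642 genes higher in red, 2271 lower in blue and the rest in grey. Rises reach much further from 0 than falls, and the slanted upper edge is formed by genes at or near 0 in the untreated libraries.

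The clearest change was in genes that had no read at all before treatment. With 0 reads in the 3 untreated libraries together, 281 genes gave 30 or more reads in the treated ones and 96 gave 100 or more, whereas 1 gene and 0 genes did the reverse. Of those 96, 60 were protein-coding, 18 were lincRNAs and 26 lay on the X chromosome. Members of this group that have germ-cell roles were DAZL, an RNA-binding protein of germ cells, and TDRD9, a helicase of the pathway that silences transposons with small RNAs in the germ line. MAGEB2 is a cancer-testis antigen normally restricted to testis. The promoters of these 3 genes are printed from RefSeq (GRCh38.p14, 250 bases before to 50 after the start) to show how many CpG dinucleotides, in capitals, they hold. The MAGEB2 window is chrX:30215313-30215612 on the plus strand, that of DAZL chr3:16605374-16605673 on the minus strand and that of TDRD9 chr14:103928206-103928505 on the plus strand.

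MAGEB2: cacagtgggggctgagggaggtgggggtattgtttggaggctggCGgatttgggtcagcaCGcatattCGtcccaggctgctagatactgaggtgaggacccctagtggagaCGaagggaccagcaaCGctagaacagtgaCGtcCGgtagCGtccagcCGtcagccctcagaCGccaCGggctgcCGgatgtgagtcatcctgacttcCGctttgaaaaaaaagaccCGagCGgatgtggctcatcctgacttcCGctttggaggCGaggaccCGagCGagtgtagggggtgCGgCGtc
DAZL: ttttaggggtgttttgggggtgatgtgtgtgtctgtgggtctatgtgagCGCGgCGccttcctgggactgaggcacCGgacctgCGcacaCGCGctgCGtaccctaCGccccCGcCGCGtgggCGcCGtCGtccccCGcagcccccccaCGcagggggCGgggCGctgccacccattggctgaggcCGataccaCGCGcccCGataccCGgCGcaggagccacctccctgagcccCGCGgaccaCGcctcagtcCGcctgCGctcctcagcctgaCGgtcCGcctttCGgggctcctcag
TDRD9: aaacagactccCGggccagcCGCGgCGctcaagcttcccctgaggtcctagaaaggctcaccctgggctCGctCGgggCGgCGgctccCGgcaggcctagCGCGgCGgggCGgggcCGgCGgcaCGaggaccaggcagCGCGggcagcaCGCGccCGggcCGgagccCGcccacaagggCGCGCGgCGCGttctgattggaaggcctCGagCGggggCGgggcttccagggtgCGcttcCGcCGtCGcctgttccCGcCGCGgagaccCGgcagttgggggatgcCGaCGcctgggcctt

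These windows hold 21, 33 and 41 CpG dinucleotides. The median was 26 over protein-coding genes tested and 14 over those with 0 untreated and at least 30 treated reads. The 3 windows therefore do not stand for that group. MAGEB2 gave 811, 770.1 and 813 scaled reads in the treated libraries and 0 in each untreated one, at least 788-fold higher against a floor of 3 reads over the group (adjusted p = 3.0e-10). DAZL gave 756, 654 and 814 against 0, at least 730-fold (adjusted p = 6.8e-11). TDRD9 gave 315, 322 and 308 against 0, at least 312-fold (adjusted p = 8.9e-12). For all 3 genes the treated libraries lay close together and far from the untreated ones. MAGEB2 and DAZL passed the filter only through treated libraries, those of UCSD-AML1 included, so their p-values are no support for the rise. Other genes that came from 0 were NFE4, a factor linked to fetal globin transcription, with 688, 717 and 797 treated reads, and the linker histone HIST1H1A, with 371, 355 and 474. MYL9, a myosin light chain of platelets, came from 0 to 243, 159 and 233, and VASN, a transmembrane inhibitor of TGF-beta, to 278, 217 and 301. The noncoding RNAs LINC01287 and LINC01344 and the pseudogene TATDN2P1 also came from 0, to means of 262, 219 and 290.1 scaled reads.

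Genes with few CpG dinucleotides near their start rose more often than CpG-rich ones, a description over 9444 protein-coding genes tested with a window in the table. The ratio of observed to expected CpG dinucleotides compares their number with that from the C and G content alone. Of the 631 genes with a ratio below 0.25, 39.1% were higher and 10.6% lower, against 22.6% and 13.8% of all protein-coding genes tested, but 63 of them passed the filter only through treated ELF-153 libraries. The share higher then dropped through 33.2, 22.9 and 19.9% to 16.5% of the 1505 genes with a ratio of 1 or more, of which 16.3% were lower and 34 had passed only in that way. Genes read only after treatment stood between these ends. The 117 protein-coding genes with 0 untreated and at least 30 treated reads had a median ratio of 0.628, against 0.339 for the 2658 genes at 0 in all 6 libraries and 0.839 for all tested.

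Genes with 1 to 3 reads before treatment also rose far. STAB1, a scavenger receptor of macrophages and sinusoidal endothelium, had 1.12, 0 and 0.911 scaled reads untreated and 1030.5, 716 and 851 treated. Its 2 untreated reads give a ratio of 1278 with a 95% counting interval of 354 to 10560, and the groups are far apart (adjusted p = 1.9e-11). ZNF648, a zinc finger protein, had 1.12, 2.05 and 0 untreated and 1000.2, 931 and 1012 treated (ratio 968, 95% counting interval 331 to 4698, adjusted p = 2.0e-08). ZNF648 passed the filter only through the treated libraries, so its p-value is no support for the rise. TSPYL6, SPDYC and NAA11, genes mainly known from testis, had means of 0.341, 0.373 and 0.304 untreated and 538, 486 and 401 treated. Their single untreated reads leave the ratio wide, at 1596 (95% counting interval 286 to 63077) for TSPYL6, 1437 (95% counting interval 258 to 56791) for SPDYC and 1187 (95% counting interval 213 to 46908) for NAA11. For genes with so few untreated reads the fitted log2 change depends on the 1 added to each value, so the ratio of the group sums is given with its 95% counting interval, which covers counting error only.

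Few genes fell as far as others rose. Among protein-coding genes with a mean of at least 50 scaled reads untreated, ARHGEF16 fell furthest, from 97.2 ± 33.8 to 2.43 ± 2.22 (log2 change -5.1 ± 0.63, adjusted p = 3.0e-05). COL5A1, a chain of type V collagen, had 739, 699.6 and 648 scaled reads untreated and 18.9, 24.4 and 22.5 treated. No treated library came near the untreated range (log2 change -4.93 ± 0.19, adjusted p = 4.9e-10). TNFRSF13C, the receptor for the B-cell survival factor BAFF, had 205, 181 and 134 untreated and 1.89, 6.105 and 10.8 treated (log2 change -4.78 ± 0.48, adjusted p = 4.2e-06). TNFRSF8, which encodes CD30, fell with its ligand gene TNFSF8. On the log2 scale the changes were -4.69 ± 0.47 and -3.42 ± 0.18, with adjusted p of 4.3e-06 and 9.3e-09. KANK4, SHISAL1, the ephrin receptor EPHA1, SKIDA1, C4orf50 and the translation factor relative EIF4E3 also fell, by log2 changes of -3.98, -3.59, -3.59, -3.58, -3.56 and -3.41, the last not called with the covariate. PHGDH, the first enzyme of serine synthesis, went from 142 ± 20.1 to 12.1 ± 6.02 (log2 change -3.55 ± 0.57, adjusted p = 2.9e-04).

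Germ-line genes were among those with the largest rises, though a large share stayed at or near 0. All 10 tested MAGE genes were higher, but 7 of them passed the filter only through treated ELF-153 libraries, and the other 11 of 21 listed were not tested. MAGEB2 and MAGEC2, outside these 7, passed only through treated libraries of both lines. MAGEA1 had 0 reads in each untreated library and 199, 167 and 144 scaled reads treated. MAGEC2 had 0 and 149, 142 and 183, and MAGEB6, the member with the most untreated reads, 0, 4.097 and 0.911 and 235, 218 and 202. MAGEA4, MAGEA10 and MAGEC3 reached means of only 6.32, 4.502 and 0.642 in the treated libraries, and MAGEA3, MAGEA8 and MAGEB17 were listed at 0 in all 6. MAGEA3 is nearly identical to MAGEA6 (114 treated), so reads of the pair may have been split or dropped. Of 49 other cancer-testis genes 17 were tested and 16 were higher, but 13 of the 17 passed the filter only through treated libraries. DDX53, a helicase, reached 259, 429.95 and 258 from 0. PAGE2B, PAGE2, CTAG2, SSX1 and VCX reached means of 133, 107, 72.1, 102 and 84.8 from 0. These belong to multigene families whose copies share sequence, so their counts are uncertain. The only tested antigen not called was ACTL8, from 435 to 166 (log2 change -1.34). Of 55 germ-cell, meiosis and piRNA genes 18 were tested, 14 higher and 3 lower, and 1 lower with the covariate. Of the 18, 6 passed the filter only through treated libraries. These counts are therefore a description and no support for a rise of the lists. TDRD12, a partner in piRNA production, went from 1.9995 ± 0.88 to 689.8 ± 19.9, SYCE1, part of the synaptonemal complex, from 0.304 ± 0.526 to 111 ± 12.2, and TEX19, from 16.1 ± 6.38 to 161 ± 4.45 (log2 change 3.31 ± 0.29, adjusted p = 1.3e-06). The piRNA methyltransferase HENMT1 came from 0 to 16.1, 15.7 and 16.6. Many defining germ-cell genes stayed near 0, with treated means of 0.291 for DDX4, 0.291 for PIWIL1 and 0 for SYCP1. Of the 55 listed genes, 11 were listed at 0 in all 6 libraries.

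Most interferon-stimulated genes rose and so did many genes that carry the signal, while the receptor calls depended on the fit. Ligand genes were close to 0. IFNB1, the main early type I interferon, had 0 reads in each untreated library and 0, 5.23 and 4.89 scaled reads treated (log2 change 1.73 ± 0.65, adjusted p = 0.053, not called). The type III ligand IFNL1 had 0, 1.02 and 0 and 0, 10.5 and 4.89 and was below the filter, and IFNA1 and IFNG were listed at 0 in all 6 libraries. The receptor subunit genes IFNAR1 and IFNAR2 rose, from 522 ± 109 to 1088 ± 160.5 (log2 change 1.07) and from 99.3 ± 41.5 to 164 ± 19.6 (log2 change 0.79). IFNGR1, of the interferon gamma receptor, rose by 0.63 on the log2 scale. None of these 3 receptor calls held with the mitochondrial ribosomal share as a covariate. The IFNAR2 groups overlapped and its call was lost under 13 alternatives, and that of IFNGR1 under 4, among them leaving out untreated library 1 or treated library 3.

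Among the genes that carry the signal, 11 of 15 tested were higher and 0 lower (median log2 change 0.86). The count was 7 with the covariate. IRF9, the DNA-binding partner of STAT2, had 96.3, 103 and 99.3 scaled reads untreated and 849.6, 672 and 782 treated (log2 change 2.93 ± 0.16, adjusted p = 1.5e-08). The treated libraries all lay far above the untreated ones. STAT2 went from 461 ± 37.9 to 1308 ± 10.5 (log2 change 1.5 ± 0.14, adjusted p = 2.9e-06), with no overlap. IRF7, the amplifier of interferon transcription, rose by 2.04 on the log2 scale, and the kinases TBK1 and JAK1 by 1.66 and 0.8. The calls of TBK1 and JAK1 were lost with the covariate. IRF1 and TYK2 had log2 changes of 0.3 and -0.18 and were not called. Of the negative regulators, ISG15, a ubiquitin-like protein, went from 1018 ± 325 to 12844 ± 2454 (log2 change 3.69 ± 0.23, adjusted p = 4.4e-08). USP18, which removes it and dampens the receptor, rose by 0.97, while SOCS1 and SOCS3 had 0.06 and 0.17 and were not called.

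Of 60 interferon-stimulated genes tested, 49 were higher and 0 lower, against 20.7% and 12.9% of all genes, and the median log2 change was 1.74. With the covariate 40 were higher and 1 lower. In 48 of the 49 called higher the treated libraries all lay above the untreated ones, against 24.9% of all genes tested. Members called higher in other lists did so too, 18 of 18 for platelet cytoskeletal and signalling genes, so this adds no support to the call. Among the 49, the second treated library was the highest in 31, the first in 13 and the third in 5. OASL, an antiviral relative of the oligoadenylate synthetases, had 4.48, 9.22 and 4.56 scaled reads untreated and 448, 363 and 425 treated (log2 change 5.92 ± 0.25, adjusted p = 9.0e-10). IFIT2, which binds viral RNA and holds back its translation, went from 72.3 ± 24.9 to 1491 ± 206 (log2 change 4.4 ± 0.24, adjusted p = 1.2e-08). HELZ2, a helicase and nuclear coactivator, went from 90.8 ± 20.3 to 1175 ± 123, and XAF1, a pro-apoptotic antagonist of XIAP, from 8.65 ± 2.01 to 116 ± 13.7. Their log2 changes were 3.7 ± 0.18 and 3.61 ± 0.2. The most abundant members not called were OAS3 (-0.08), TRIM14 (-0.53) and NMI (0.53). Promoter windows of 3 members are printed because they hold the letters GAAA, any 2 bases and GAAA again, in capitals, searched on both strands. This is the core of the element that the IRF9 complex binds. IFI44L, chr1:78620198-78620497 on the plus strand, is the member with the largest change. IFIT1, chr10:89392373-89392672 on the plus strand, and IFI6, chr1:27672143-27672442 on the minus strand, were picked for their motifs after their values were seen.

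IFI44L: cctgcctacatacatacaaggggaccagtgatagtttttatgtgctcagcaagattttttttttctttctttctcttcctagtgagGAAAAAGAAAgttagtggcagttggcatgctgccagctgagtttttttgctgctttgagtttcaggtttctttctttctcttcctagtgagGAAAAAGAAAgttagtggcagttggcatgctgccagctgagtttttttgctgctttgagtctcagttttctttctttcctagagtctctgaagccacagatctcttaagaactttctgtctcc
IFIT1: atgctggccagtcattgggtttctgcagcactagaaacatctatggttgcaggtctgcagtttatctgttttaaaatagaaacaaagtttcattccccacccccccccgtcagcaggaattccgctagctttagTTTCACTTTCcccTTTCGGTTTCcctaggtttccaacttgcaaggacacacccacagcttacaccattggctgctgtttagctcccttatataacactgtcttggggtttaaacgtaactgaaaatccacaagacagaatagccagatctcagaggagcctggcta
IFI6: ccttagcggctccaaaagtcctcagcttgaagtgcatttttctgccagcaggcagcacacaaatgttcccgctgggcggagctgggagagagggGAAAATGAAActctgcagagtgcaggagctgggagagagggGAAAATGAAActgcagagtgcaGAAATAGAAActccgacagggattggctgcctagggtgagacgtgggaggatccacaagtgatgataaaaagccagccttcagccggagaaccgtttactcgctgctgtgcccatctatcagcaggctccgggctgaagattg

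IFI44L, a response gene of little known function, had 1.12, 2.05 and 2.73 scaled reads untreated and 378, 746 and 361 treated. IFIT1, a sensor of foreign RNA caps, had 2.24, 23.6 and 19.1 untreated and 589, 535 and 508 treated, and IFI6, a mitochondrial survival protein, 3.36, 9.22 and 5.47 and 52.1, 47.1 and 83.2. All 3 genes had every treated library above every untreated one, and their log2 changes were 7.34 ± 0.28, 5.54 ± 0.53 and 3.18 ± 0.33. The letters occur 2, 2 and 3 times in their windows, with no overlap between copies. At least 1 copy was present in 30 of the 41 windows found for members that rose (73.2%) and in 4 of 7 for members not called. The share was 3.65% over all 27305 promoters of the table, 4.57% over protein-coding genes that were higher and 2.13% over those lower. RSAD2, HELZ2 and XAF1 rose and do not have these letters in the window.

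Sensors of foreign nucleic acid changed gene by gene. IFIH1, which encodes MDA5, a sensor of long double-stranded RNA, had 119.9, 185 and 184 scaled reads untreated and 795, 1639.6 and 869 treated (log2 change 2.7 ± 0.28, adjusted p = 6.0e-06). DHX58, the regulator LGP2, went from 15.7 ± 2.41 to 62.7 ± 17.3 (log2 change 1.9 ± 0.24). The RNA-dependent kinase EIF2AK2 rose by 1.5 on the log2 scale. TICAM1, the adaptor of the endosomal sensor TLR3, fell from 522 ± 109 to 279.6 ± 20.2 (log2 change -0.88 ± 0.25, adjusted p = 0.016), a call lost with the covariate. MAVS, the adaptor of MDA5, had -0.38, the DNA sensor CGAS -0.4 and its adaptor TMEM173, known as STING, -0.31, and none was called. In all, 8 of 15 tested sensing genes were higher and 1 lower, and 5 were higher and 0 lower with the covariate. The count higher was also 5 without untreated library 1 or 3 or treated library 2, and 4 without retained-intron and processed transcripts. DDX58, the sensor RIG-I, was listed at 0 in all 6 libraries, which is not taken as absence of the RNA. The APOBEC3 cytidine deaminases, which mutate retroviral DNA, had 3 of 4 tested members higher, among them APOBEC3G (1.04) and APOBEC3F (0.94). With the covariate the count was 1.

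**Figure D2:**
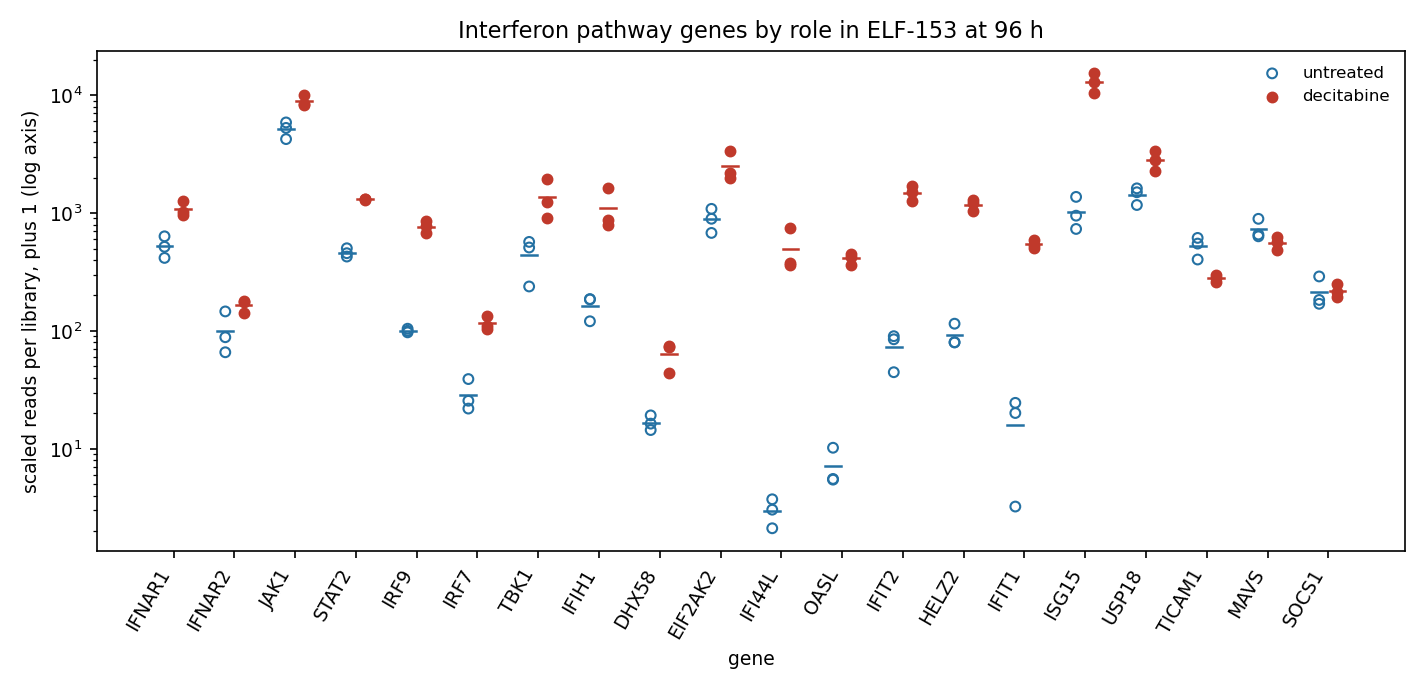
Scaled reads plus 1 per library (log axis) of interferon pathway genes ordered by role, from receptors to effectors and inhibitors, with 3 untreated libraries as open circles, 3 treated as filled circles and bars at the means. The groups are apart for most transducers, sensors and effectors shown. They are not apart for IFNAR2 and SOCS1, MAVS was not called, and TICAM1 is lower after treatment.

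Antigen presentation was only partly readable. Of 20 class I genes 8 were listed at 0 in all 6 libraries, HLA-C and TAP1 among them. Nucleated cells generally express these, so a listed 0 is not taken as absence of the RNA. NLRC5, the class I transactivator, went from 71.2 ± 3.24 to 192 ± 19.7, and B2M, the shared light chain, from 76.9 ± 26.5 to 167 ± 12.4. On the log2 scale the changes were 1.42 and 1.17, the latter not called with the covariate. The class II transactivator CIITA moved the other way, with 1633, 1778 and 1359 scaled reads untreated and 581, 557 and 535 treated (log2 change -1.5 ± 0.29, adjusted p = 0.0011). CD74, the class II chaperone, had a log2 change of -0.29 and was not called. Of the list, 4 of 13 tested class I genes were higher and 1 lower, and 1 and 0 with the covariate. CD48, the ligand of the NK receptor CD244, had 11.2, 24.6 and 26.4 untreated and 582, 558 and 644 treated, with wide separation (log2 change 4.86 ± 0.25, adjusted p = 7.3e-09). ULBP2, a ligand of NKG2D, rose from 47.7 ± 10.3 to 142 ± 24.9, and NCR3LG1, the NKp30 ligand B7-H6, fell from 2314 ± 957 to 766 ± 38.001. Their log2 changes were 1.56 and -1.51. Among costimulatory and checkpoint genes, 9 of 14 were higher and 1 lower. TNFSF9, the ligand of CD137, went from 94.8 ± 29.1 to 643 ± 118 (log2 change 2.77 ± 0.21, adjusted p = 3.5e-07). The phagocytosis inhibitor CD47, from 519 to 1287, and HAVCR2, which encodes TIM-3, from 53.8 to 164, rose, though HAVCR2 was not called with the covariate. ICOSLG, the ligand of ICOS, fell from 1432 ± 339 to 197 ± 19.2 (log2 change -2.83 ± 0.33, adjusted p = 1.8e-05). CD274, which encodes PD-L1, was below the filter, with means of 6.19 and 4.67.

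Inflammatory signalling genes rose beside them. Of 18 tested NF-kB pathway genes 13 were higher and 1 lower, and 8 were higher with the covariate. The inhibitors of the pathway were among those that rose. NFKBIZ, a nuclear cofactor, went from 10.98 ± 3.23 to 77.3 ± 28.2, NFKBIA, which holds NF-kB in the cytosol, from 106 ± 7.24 to 280.2 ± 16.5, and the survival gene BIRC3 from 16.7 ± 12.2 to 208 ± 80.3. On the log2 scale the changes were 2.69, 1.4 and 3.87. The subunit genes NFKB2, REL and RELB rose by 2.08, 1.15 and 1.28, REL not with the covariate, while RELA, at 0.53, was not called. Of 17 tested cytokine genes 14 were higher and 0 lower. IL1A had 0, 0 and 1.82 scaled reads untreated and 46.4, 79.4 and 45.01 treated (ratio 85.6, 95% counting interval 23.4 to 712, adjusted p = 1.0e-05). The neutrophil attractants CXCL1, CXCL2 and CXCL3 rose by 1.91, 1.26 and 1.73, and IL1B by 1.24. TNF was listed at 0 in all 6 libraries. Of 30 immediate early genes 15 were higher and 1 lower. EGR3 went from 0.987 ± 1.03 to 102 ± 39.1 (ratio 101, 95% counting interval 34.3 to 493, adjusted p = 2.5e-07), EGR1 from 63.99 ± 39.3 to 465 ± 86.96 (log2 change 3.11 ± 0.43, adjusted p = 8.3e-05) and the mRNA decay factor ZFP36 from 66.3 ± 22.8 to 240.05 ± 32.7. JUNB rose by 1.45, whereas JUND and IER5, the most abundant members not called, had -0.26 and 0.27. Complement C3 went from 0.949 ± 0.914 to 95.7 ± 10.9 (ratio 94.4, 95% counting interval 32.02 to 460.5, adjusted p = 7.5e-08) and the anaphylatoxin receptor C5AR1 from 7.23 ± 3.35 to 75.4 ± 17.7. In that list 5 of 12 were higher, and 3 with the covariate.

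Genes of megakaryocytes and platelets rose in several functional groups, though not in all members. Of the transcription factors of megakaryocytes and red cells, 8 of 18 tested were higher and 2 lower (median log2 change 0.42). KLF1, the erythroid Krüppel-like factor, had 177, 142 and 147 scaled reads untreated and 1859, 1001 and 1504 treated (log2 change 3.18 ± 0.4, adjusted p = 3.9e-05). ZFPM1, the partner FOG1 of GATA1, went from 689.5 ± 119 to 2153 ± 568, LMO2, a bridge of the same complex, from 269 ± 47.6 to 871 ± 186, and TAL1 from 127 ± 42.7 to 249 ± 27.9. Their log2 changes were 1.62, 1.69 and 1.01. IKZF1, the lymphoid factor Ikaros, fell by a log2 change of -0.67, not called with the covariate, and RUNX1, NFE2 and MYB, at 0.23, 0.21 and 0.26, were not called.

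Of the surface receptors 11 of 18 tested were higher and 0 lower, of the granule proteins 10 of 19 and 0, and of the cytoskeletal and signalling genes 18 of 21 and 0. Their median log2 changes were 1.31, 1.29 and 2.66, beside 0.17 for all genes. GP9, a subunit of the receptor for von Willebrand factor, had 1.12, 2.05 and 0 untreated and 427, 259 and 361 treated. GP1BA, its ligand-binding subunit, had 12.3, 5.12 and 2.73 and 559, 400.3 and 433. For both, the first treated library was the highest and the second the lowest. The changes were a ratio 343, 95% counting interval 117 to 1663, adjusted p = 1.2e-09 for GP9 and a log2 change 6.1 ± 0.34, adjusted p = 1.3e-08 for GP1BA. The thrombin receptors F2R and F2RL3 rose from 785 to 2625 and from 151 to 881. CD36 and CD9 were not called, and the collagen receptor GP6 had 0.99. PF4, the platelet chemokine, had 1.12, 0 and 1.82 untreated and 485, 287 and 379 treated (ratio 377, 95% counting interval 129 to 1828, adjusted p = 1.1e-09), and PPBP, the precursor of neutrophil-activating peptide, 116, 337 and 279.8 and 11662, 7234 and 9435 (log2 change 5.37 ± 0.32, adjusted p = 3.2e-08). Thrombospondin THBS1 went from 59.7 ± 11.3 to 1019 ± 75.1, and serglycin SRGN, a proteoglycan that packs granules, from 1226 ± 504 to 5917 ± 171. Von Willebrand factor VWF and TGFB1, at 0.64 and 0.06, were not called, and F13A1 and F5 were listed at 0. PLEK, the protein kinase C substrate pleckstrin, had 4936, 5504 and 5466 untreated and 36462, 31959 and 32259 treated (log2 change 2.66 ± 0.15, adjusted p = 1.6e-08). CMTM5, cortactin CTTN and the G-protein regulator RGS18 rose by 4.98, 4.28 and 2.99. Talin TLN1 and kindlin-3 FERMT3, at 0.42 and 0.21, were not called.

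Red cell genes rose unevenly. The ammonium channel RHAG had 7.84, 7.17 and 0.911 scaled reads untreated and 509.6, 637 and 497 treated (log2 change 6.72 ± 0.43, adjusted p = 5.7e-08). The anion exchanger SLC4A1, known as band 3, had 0, 0 and 0.911 and 59.7, 48.8 and 47.9 (ratio 155, 95% counting interval 27.4 to 6140.1, adjusted p = 3.9e-07). The blood group proteins KEL and XK rose to means of 69.3 and 11.4 from 3.09 and 0, and the spectrin SPTB rose by 2.25 on the log2 scale. The transferrin receptor TFRC, with a log2 change of -0.09, was not called. In that list 9 of 18 were higher and 1 lower, with 3 that passed the filter only through treated libraries. Embryonic HBE1 came from 0 to 51.1, 36.6 and 55.8, at least 46.9-fold, and adult HBB went from 4.48, 1.02 and 0 to 149.6, 158 and 122. HBD had 53.8, 59.4 and 65.6 and 739, 700.3 and 652. The globin genes within a cluster share sequence, so these counts are uncertain, and HBA2 and HBG2 were listed at 0. Haem enzymes split. CPOX, which makes protoporphyrinogen, rose from 503 ± 185 to 2238 ± 28.5 (log2 change 2.23 ± 0.24, adjusted p = 9.0e-06) and FECH, which adds the iron, by 1.53 on the log2 scale, while ALAS1, the housekeeping first enzyme, fell from 25.1 ± 2.504 to 6.88 ± 8.84 (log2 change -2.36 ± 0.76, adjusted p = 0.027). ALAS2, its erythroid form, reached only 4.74, 0 and 0.978 from 0. Haem oxygenase HMOX1 went from 10.9 ± 3.28 to 117 ± 9.04 (log2 change 3.34 ± 0.23, adjusted p = 1.2e-07). Of the haem list 6 of 19 were higher (31.6%) and 2 lower (10.5%), beside 20.7% and 12.9% of all genes. The ALAS1 call was lost under 7 alternatives, the covariate and leaving out any of 4 single libraries among them, and the FECH call without treated library 2, while with the covariate the FECH value was -0.05.

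Basophil, eosinophil and mast cell genes also rose, 7 of 8 tested with a median log2 change of 2.66, and 4 with the covariate. CLC, the Charcot-Leyden crystal protein, had 6.72, 9.22 and 13.7 scaled reads untreated and 1320.3, 1398 and 1596 treated (log2 change 7.09 ± 0.35, adjusted p = 4.1e-09). Histidine decarboxylase HDC, which makes histamine, had 0, 1.02 and 1.82 and 223, 160.5 and 164 (ratio 180, 95% counting interval 61.3 to 875, adjusted p = 1.2e-07), and the granule protein PRG2 went from 8.02 ± 3.95 to 188 ± 6.71. HPGDS, the prostaglandin D synthase, rose from 232 ± 178 to 1142 ± 146 (log2 change 2.86 ± 0.6, adjusted p = 0.0023), a call lost with the covariate. The mast cell tryptase TPSAB1 was below the filter, with means of 2.202 and 13.9, as was MS4A2, a chain of the IgE receptor, with 0 and 0.291.

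Granulocyte and monocyte genes moved both ways, 14 of 25 tested higher and 4 lower, with 6 that passed the filter only through treated libraries. With the covariate 1 was lower. CYBB, the catalytic subunit of the phagocyte oxidase, had 21.3, 7.17 and 10.9 scaled reads untreated and 464, 1034 and 672 treated (log2 change 5.73 ± 0.35, adjusted p = 4.4e-08). The calgranulin S100A12 went from 1.97 ± 0.81 to 186 ± 31.3, the Fc receptor FCGR2A from 143 ± 17.95 to 688 ± 24.9, and the granulocytic factor CEBPE from 50.9 ± 9.08 to 352 ± 33.3. On the log2 scale the changes were 6, 2.27 and 2.78. Calgranulin S100A9 rose by 2.19 and lysozyme LYZ by 2.8, the latter from 127, 219 and 239.7 to 1192, 1517 and 1252. The 4 members that fell were CEBPA, CSF3R, CTSG and CD33. They are named because they are few, after their values were seen. CEBPA, the factor that commits cells to the granulocyte and monocyte path, went from 481 ± 208 to 183 ± 68.1, the G-CSF receptor CSF3R from 42.02 ± 12.9 to 14 ± 8.03, cathepsin CTSG from 83.98 ± 12.5 to 22.5 ± 11.5 and CD33 from 507 ± 91.1 to 225 ± 6.63. With the covariate only CD33 was still lower, and its call was lost without transcripts annotated as retained introns or processed transcripts. The most abundant members not called, CEBPB (-0.12), CEBPD (-0.32) and SPI1 (0.00), include the lineage factor PU.1. MPO, PRTN3 and ELANE, which like CTSG encode primary granule proteins, had treated means of 0.291, 0.617 and 0.

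**Figure D3:**
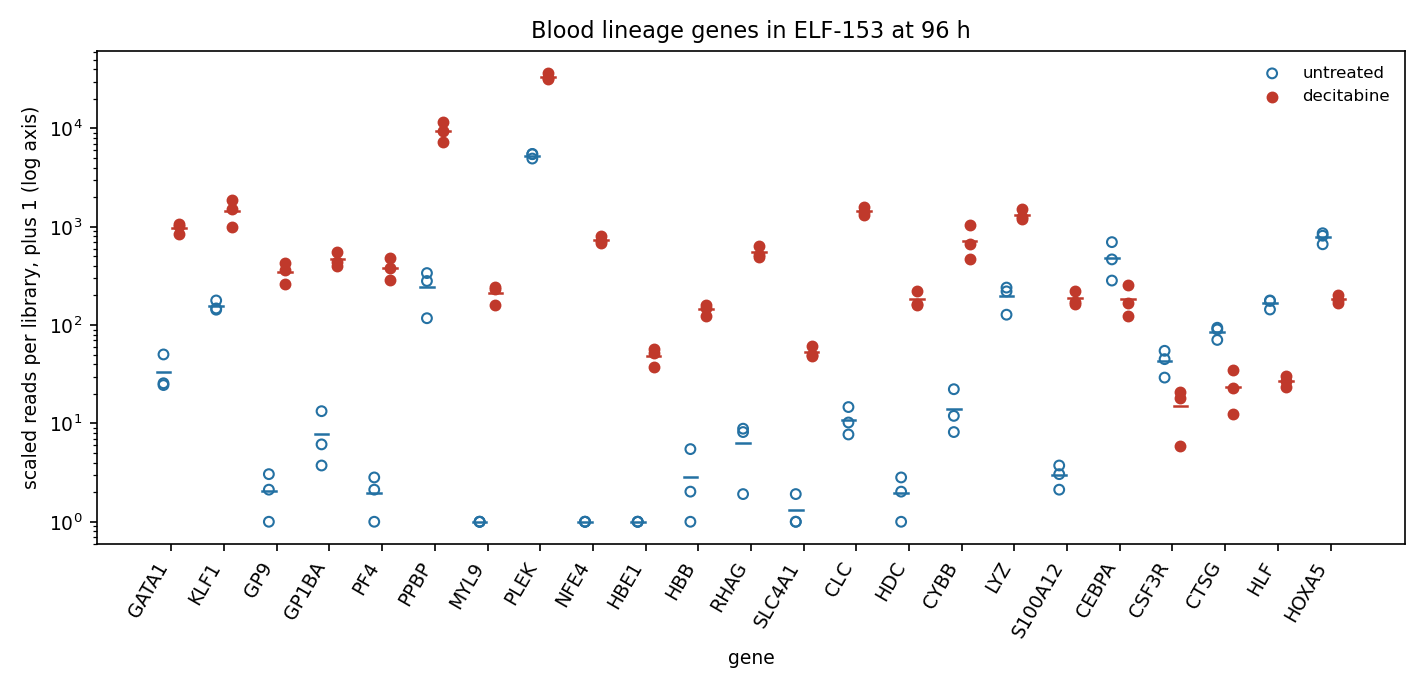
Scaled reads plus 1 per library (log axis) of blood lineage genes, with 3 untreated libraries as open circles, 3 treated as filled circles and bars at the means. Megakaryocyte, erythroid, basophil and phagocyte genes lie higher after treatment, whereas CEBPA, CSF3R, CTSG, HLF and HOXA5 lie lower.

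Progenitor genes fell in larger number than they rose, 11 lower and 5 higher of 24 tested. HOXA5 had 809.9, 858 and 663 scaled reads untreated and 178, 202 and 168 treated (log2 change -2.08 ± 0.19, adjusted p = 2.0e-06). HOXA7 went from 688 ± 199.9 to 202 ± 14.7, HOXA10 from 438 ± 104 to 151 ± 14.7, and the myeloid coactivator MN1 from 1589.6 ± 368 to 526 ± 48.7, with log2 changes of -1.73, -1.51 and -1.57. The homeobox genes keep positional and stem cell programmes, and of 11 tested 6 were lower and 2 higher, with HOXB4 among the latter. HLF, a stem cell transcription factor, and SPINK2, a progenitor gene, fell from 165 to 26.01 and from 128 to 25.6, SPINK2 not with the covariate. They rank below the members named by rule and were picked after their values were seen. CD38, a marker of progenitors that have left the stem cell state, rose from 0.373 ± 0.647 to 35.3 ± 2.68 (ratio 105, 95% counting interval 18.4 to 4178, adjusted p = 1.9e-06). THY1, a marker of the stem cell side, rose from 0.373 ± 0.647 to 22.2 ± 3.35 (ratio 65.3, 95% counting interval 11.4 to 2616, adjusted p = 5.9e-07). KIT, at 0.64, and the cofactor PBX3, at -0.48, were not called. MECOM, which encodes EVI1, was near 0 in both groups, with 0, 3.07 and 1.82 untreated and 2.84, 2.62 and 2.94 treated.

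Markers of other cell types were read as a check on what the cultures could hold. Of 14 T cell markers 7 were tested and 4 were higher, with a summed level of 860.3 to 1428 scaled reads untreated and 1275 to 1568 treated. CD2, TRBC2 and CD3G rose to means of 134, 184 and 96.4, while CD8A was listed at 0 and CD3E reached 3.32. The 12 B cell markers summed to 1019 to 1560.4 scaled reads untreated and 960.2 to 1173 treated, with 2 of 5 tested lower, CD79B among them, and with MS4A1 listed at 0. The 12 NK cell markers summed to 76.5 to 125 scaled reads untreated and 91.6 to 139 treated, the 12 fibroblast markers to 879 to 982 scaled reads untreated and 276 to 297 treated, the 12 epithelial to 76.8 to 139 scaled reads untreated and 75.9 to 95.9 treated, the 12 endothelial to 714 to 1178 scaled reads untreated and 799.7 to 1274 treated, and the 12 neuronal to 88.1 to 116 scaled reads untreated and 391 to 465 treated. EPCAM, DCN, LUM, RBFOX3 and KLRD1, defining markers of those cells, had treated means of at most 0.326. Among the neuronal markers the glutamate carrier SLC17A7 went from 1.66 ± 0.484 to 56.1 ± 6.92 and the GABA enzyme GAD1 from 6.83 ± 2.33 to 74.2 ± 22.97. Of the neuronal markers 3 of 4 tested were higher, and of the endothelial 3 of 9, with 1 lower. The fibroblast sum fell with COL5A1, described above, while 2 of the 4 tested fibroblast markers, THY1 and the collagen gene COL3A1, were higher, COL3A1 from 2.42 ± 3.27 to 37.8 ± 2.77. What part other cells had in any lineage change was not tested.

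Proliferation genes fell, with those of replication most complete. Of 40 replication genes 31 were lower and 0 higher (median log2 change -1.67), of 37 mitosis genes 20 and 0 (median log2 change -1.21), and of 22 damage and recombination genes 14 and 0 (median log2 change -1.22). The last count was 8 with the covariate. CDT1, which licenses origins, had 4608, 3551 and 3030.02 scaled reads untreated and 675, 529 and 696 treated (log2 change -2.55 ± 0.2, adjusted p = 4.2e-07). The histone chaperone CHAF1B went from 1077 ± 252 to 208 ± 33.2, the factor E2F2 from 3290.1 ± 373 to 979 ± 166 and the helicase subunit MCM6 from 6427 ± 1265 to 1887 ± 248. Their log2 changes were -2.35, -1.76 and -1.76. MYBL2, which drives the late cell cycle, had 1457, 745 and 852 untreated and 159, 123 and 147 treated (log2 change -2.77 ± 0.24, adjusted p = 1.3e-06), and MKI67, the marker of cycling cells, went from 997 ± 525 to 220.3 ± 13.8. TOP2A, NDC80 and ASPM, the most abundant mitosis genes not called, had log2 changes of -0.58, -0.71 and 0.03. The Fanconi gene FANCA went from 620.2 ± 71.3 to 183 ± 24.97 and RAD54L from 243 ± 67.5 to 49.4 ± 7.28. MGMT, which repairs alkylated guanine, fell from 453 ± 130.4 to 188 ± 54.3. The RAD54L and MGMT calls were lost with the covariate.

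Brakes of the cycle and of survival changed gene by gene. CDKN2D, which encodes p19, rose from 49.1 ± 16.1 to 183 ± 56.6, and CDKN2A from 246 ± 16.2 to 470.1 ± 46.8, whereas CDKN1B, which encodes p27, fell from 758 ± 261 to 399.9 ± 20.9. The log2 changes were 1.88, 0.93 and -0.86, the last not called with the covariate. Of 26 p53 target genes 10 were higher and 1 lower. The antiproliferative gene BTG2 had 251, 222 and 247 scaled reads untreated and 4216, 3284 and 3179.8 treated (log2 change 3.88 ± 0.16, adjusted p = 6.6e-10). ZMAT3, an RNA-binding target, went from 85.2 ± 59.3 to 808 ± 515, GADD45A from 161 ± 6.96 to 368 ± 33.4, and TIGAR, which lowers glycolysis, from 60.7 ± 7.74 to 299 ± 236, the last not called with the covariate. The abundant targets SESN2 (-0.34), TNFRSF10A (0.11) and SESN1 (0.16) were not called. BCL2 fell from 856 ± 169.5 to 405 ± 172 (log2 change -1.14 ± 0.25, adjusted p = 0.0031), while MCL1 rose from 1448 ± 16.5 to 3344 ± 888 (log2 change 1.18 ± 0.2, adjusted p = 4.2e-04). The death promoters BCL2L11 and BMF rose by 1.48 and 2.38, BOK came from 0 to 21.8, 17.4 and 8.81, and BAX, BAK1 and BCL2L1 were not called. In the MYC network MYCL had 7.84, 8.19 and 8.202 untreated and 313, 298 and 329.7 treated (log2 change 5.11 ± 0.81, adjusted p = 2.8e-04). The antagonists MXD4 and MXD1 rose from 306 to 1841 and from 361 to 965, and MYCN fell from 10926 ± 2971 to 6062 ± 662, while MYC, at -0.87, was not called. The MXD1 and MYCN calls were lost with the covariate.

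Histone genes split between a broad fall and a few rises. Of 31 core histone genes 21 were lower and 7 higher, and of 8 linker histone genes 5 and 3. HIST1H3J, a replication-dependent H3 gene, had 19662, 21488 and 22837 scaled reads untreated and 3574, 2789 and 3925 treated (log2 change -2.65 ± 0.19, adjusted p = 1.9e-07). The linker gene HIST1H1B went from 248934 ± 61677 to 27565 ± 4705 (log2 change -3.16 ± 0.21, adjusted p = 8.4e-08). HIST1H4C and HIST1H2BF rose, from 18.03 ± 10.01 to 2336 ± 344 and from 6.97 ± 3.22 to 511 ± 89.6. H1F0, the linker histone of resting cells, rose from 4442 ± 2081 to 9219.97 ± 558 (log2 change 1.15 ± 0.23, adjusted p = 0.002). Copies of core histone genes are nearly identical, so the split of reads among them is uncertain.

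Genes that handle the drug changed in both directions. SAMHD1, which cuts deoxynucleoside triphosphates and inactivates decitabine triphosphate, had 356, 279.7 and 305 scaled reads untreated and 957, 1146 and 1035 treated (log2 change 1.74 ± 0.16, adjusted p = 2.1e-06). DCK, the kinase that activates the drug, went from 49.4 ± 8.71 to 25.6 ± 4.6997, the transporter SLC29A1 from 60.6 ± 26.6 to 21.6 ± 6.94, and the deaminase DCTD from 42.4 ± 3.99 to 15.8 ± 5.57. On the log2 scale the changes were -0.92 ± 0.29, -1.38 ± 0.42 and -1.42 ± 0.3. All 3 calls were lost with the covariate, and those of DCK and SLC29A1 also when untreated library 1 or treated library 2 was left out. CDA, the deaminase that clears decitabine, was near 0, from 0 to 0.326. The list had 4 higher and 8 lower of 14 tested, and 1 and 3 with the covariate. Of 16 DNA methylation genes 3 were higher and 6 lower. TET1, which oxidises methylcytosine, fell from 1291 ± 432 to 546 ± 109 (log2 change -1.2 ± 0.24, adjusted p = 0.0017), and HELLS, a remodeller needed for methylation, from 509 ± 75.05 to 159 ± 62.4, while TET2 and DNMT3A, at 1.36 and 0.5, were not called. SUV39H1, which writes the H3K9 methylation of heterochromatin, had 1319.5, 775 and 882 untreated and 179, 174 and 206 treated (log2 change -2.37 ± 0.21, adjusted p = 1.3e-06). CBX5, which encodes the reader HP1 alpha, went from 6975 ± 2473 to 2779 ± 729.7 (log2 change -1.3 ± 0.25, adjusted p = 0.0013). SETDB1 and TRIM28, which silence retroviruses, had -0.09 and -0.53 and were not called. They are named beside the rule, after their values were seen.

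Imprinted genes, read from a single parental copy, had 10 of 25 tested higher and 0 lower, and 6 higher with the covariate. NDN came from 0 to 43.6, 28.8 and 31.3 scaled reads, MEST went from 0, 0 and 0.911 to 25.6, 24.4 and 30.3, and NAP1L5 from 0, 3.07 and 1.82 to 42.6, 71.5 and 38.2. The groups did not overlap for these 3. The increases were at least 34-fold for NDN and a ratio 79.1, 95% counting interval 13.8 to 3161, adjusted p = 7.4e-06 for MEST. Clustered protocadherins had 7 of 23 higher and 0 lower, and 3 higher with the covariate or 4 without treated library 1. Of the 23, 5 passed the filter only through treated libraries. Zinc finger genes had shares higher near the 20.7% of all genes, of which 12.9% were lower. On chromosome 19, 57 of 224 were higher (25.4%) and 10 lower (4.46%), with a median log2 change of 0.37. On other chromosomes these counts were 40 and 19 of 217 (18.4% and 8.76%), with a median of 0.19. With the covariate these counts were 14 and 7 of chromosome 19 and 23 and 10 of the others, so the group with the larger share higher changed. Without treated library 2 the chromosome 19 count higher was 28, and its count lower was 6 without untreated library 1 or treated library 1 or 3. Of these genes 11 and 13 passed the filter only through treated libraries.

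Glycolytic genes fell, 11 of 26 tested lower and 3 higher, and 7 lower and 1 higher with the covariate. GPI, which turns glucose phosphate to fructose phosphate, had 1306, 1289.7 and 1052 scaled reads untreated and 269.9, 320.1 and 321 treated (log2 change -2 ± 0.19, adjusted p = 2.8e-06). The mitophagy receptor BNIP3 went from 130.3 ± 58.9 to 23.1 ± 5.61, GAPDH from 4378 ± 1271 to 1842 ± 322 and LDHA from 257 ± 25.8 to 117 ± 36.8, with log2 changes of -2.35, -1.23 and -1.17. The GAPDH call was lost with the covariate. SLC2A3, a glucose transporter, rose from 10.3 ± 2.12 to 40.3 ± 15.01, a call lost without retained-intron and processed transcripts, and SLC2A1, at 0.01, was not called. In the serine and amino acid branch of the ATF4 list, TRIB3 and SHMT2 fell by log2 changes of -1.71 and -1.23, while ATF5 and the chaperone DNAJB9 rose by 1.53 and 2.88. The SHMT2 and DNAJB9 calls were lost with the covariate. That list had 7 higher and 7 lower of 27, and 4 and 4 with the covariate. Cholesterol synthesis had 6 of 25 lower and 3 higher, and 3 and 0 with the covariate. MVK, mevalonate kinase, went from 89.4 ± 8.603 to 22.1 ± 6.3002, while the exporter ABCA1 rose from 107 ± 23.2 to 466 ± 51.5, not called with the covariate. Ribosome biogenesis had 13 of 31 lower and 0 higher, among them MRTO4 (-1.52) and the nucleolar protein NOP56 (-1.07). Cytosolic ribosomal protein genes had 14 of 81 lower (17.3%) and 4 higher (4.94%), beside 12.9% and 20.7% of all genes. The count lower was 3 with the covariate and 7 to 9 without untreated library 1 or 3 or any 1 treated library. Lysosome and autophagy genes had 10 of 26 higher and 1 lower, among them the cathepsin CTSZ (1.59) and the master regulator TFEB (1.77).

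Matrix and TGF-beta genes included single large changes. MMP9, a secreted gelatinase, had 298, 158 and 184 scaled reads untreated and 5191, 4525 and 5319 treated (log2 change 4.6 ± 0.22, adjusted p = 2.8e-09). The laminin LAMA5 had 14.6, 20.5 and 7.29 and 658, 356 and 549.9 (log2 change 5.17 ± 0.41, adjusted p = 4.6e-07). The adhesion list had 8 of 24 higher (33.3%) and 2 lower (8.33%), beside 20.7% and 12.9% of all genes. CD44, its most abundant member not called, had 0.71. Of 21 TGF-beta genes 9 were higher and 0 lower. SKIL, a feedback repressor, went from 25.7 ± 1.77 to 195 ± 77.3, BMP6 from 28.4 ± 10.2 to 189.8 ± 32.2, and the inhibitor of differentiation ID2 from 10.7 ± 3.28 to 53.999 ± 7.04. Their log2 changes were 2.8, 2.74 and 2.27.

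**Figure D4:**
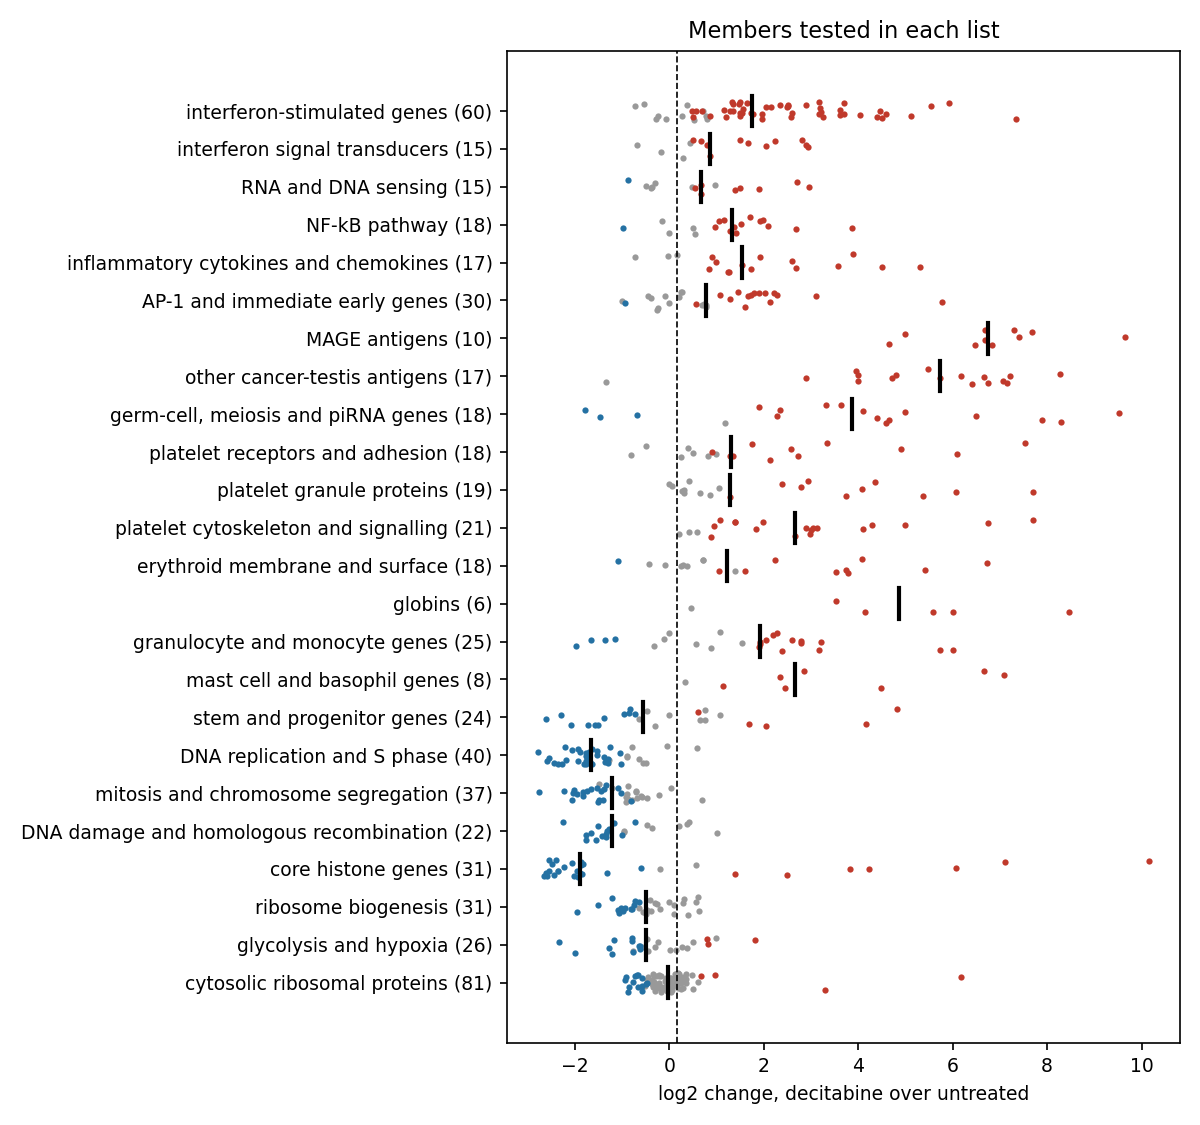
Log2 change with decitabine of every tested member of 24 gene lists, with members higher in red, lower in blue and not called in grey, a bar at each list's median and a dashed line at the median of all genes (0.17). Members tested are in brackets, and lists of replication, mitosis and ribosome biogenesis lie to the left of the dashed line while interferon, germ-line and platelet lists lie to the right.

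Kinds of transcript are given beside the 20.7% higher and 12.9% lower of all genes. LincRNAs had 261 of 882 higher (29.6%) and 65 lower (7.37%) and a median log2 change of 0.46, but 118 of them passed the filter only through treated ELF-153 libraries. Their share of reads outside the mitochondrial genome was 0.543 to 0.683% untreated and 0.863 to 1.16% treated, with no overlap (exact permutation p = 0.1, 2-sided, the smallest possible). Antisense RNAs had 207 of 1122 higher (18.4%) and 142 lower (12.7%). No label or file header states how strand was used in counting, so reads of an antisense RNA and of the gene it overlaps cannot be told apart. Processed pseudogenes had 311 of 2566 higher (12.1%) and 345 lower (13.4%), and snoRNAs 6 of 139 higher (4.32%) and 11 lower (7.91%). Both groups share sequence with other loci, or are short, and are counted with less certainty. PROSER2-AS1 went from 0.304 ± 0.526 to 723 ± 77.8 scaled reads (ratio 2138, 95% counting interval 383 to 84478, adjusted p = 4.0e-09) and PAX8-AS1 from 0.645 ± 0.562 to 416 ± 44.2 (ratio 615, 95% counting interval 170.04 to 5087, adjusted p = 3.8e-11). PROSER2-AS1 would not have passed the filter without treated libraries, so its p-value is no support for the rise. The lincRNA KIAA0087 fell from 1343 ± 74.6 to 140.5 ± 35.8 (log2 change -3.28 ± 0.42, adjusted p = 4.2e-05), and MIR210HG, the host of a hypoxia microRNA, from 119 ± 30.3 to 3.996 ± 1.198 (log2 change -4.59 ± 0.38, adjusted p = 7.4e-07). The precursor of the myeloid microRNA MIR223 rose from 59.1 ± 8.001 to 108 ± 22.4 and that of MIR25 fell from 106 ± 19.8 to 36.3 ± 1.85, with log2 changes of 0.84 and -1.51, the latter not called with the covariate.

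By chromosome, genes of the X chromosome had 170 of 668 (25.4%) higher and 64 (9.58%) lower, beside 20.7% and 12.9% of all genes, but 51 of them passed the filter only through treated ELF-153 libraries. Chromosome 13 had a similar share, 82 of 329 (24.9%) higher and 36 (10.9%) lower, with 20 that passed in that way. Chromosomes 22 and 16 leaned the other way, with 62 of 438 (14.2%) higher and 104 (23.7%) lower and 108 of 806 (13.4%) higher and 148 (18.4%) lower.

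Transposable elements were counted by family. On the scale of the gene table, 214 of 1063 families tested were higher (20.1%) and 8 lower (0.753%), with a median log2 change of 0.55. Under the repeat table's own scaling the median was 0.00 and the counts 92 and 71. The 92 families higher and 8 lower under both scalings are therefore the ones whose direction did not rest on that choice. The count higher also moved with single libraries, to 116, 494 or 123 without untreated library 1, 2 or 3 and to 302, 110 or 123 without treated library 1, 2 or 3, and without treated library 3 the count lower was 4. With only the 6 ELF-153 libraries fitted, 55 families were higher and 1 lower. Endogenous retroviruses named HERV stood out among them, with 18 of 43 tested higher under both scalings and 1 lower. Their median log2 change was 1.10, or 0.58 under the other scaling. Alu families had 0 and 1 of 47. The internal part of HERV-Fc1 went from 1.02 ± 1.77 to 363 ± 36.8 scaled reads and that of HERV-Fc2 from 0.373 ± 0.647 to 151 ± 10.5. Their long terminal repeats HERV-Fc1_LTR1 and HERV-Fc2_LTR went from 0 ± 0 to 107 ± 1.63 and from 0.608 ± 1.05 to 32.7 ± 5.002. HERVH48-int went from 14.6 ± 7.799 to 273 ± 35.3 (log2 change 4.24, or 3.72 under the other scaling), and the satellite-like REP522 from 10.9 ± 2.93 to 146 ± 15.04. The falls were small. LTR21A fell from 728 ± 59.2 to 370.3 ± 16.3 (log2 change -0.97), HERVS71-int by a log2 change of -0.73, and Penelope1_Vert, LTR13 and MER61E by -0.68, -0.63 and -0.63. ERVH48-1, the envelope-derived host gene suppressyn, went from 0.341 ± 0.591 to 23.6 ± 9.21, and ERV3-1 from 388 ± 72.04 to 1489.6 ± 18.3.

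The response was set beside that of UCSD-AML1, the second leukaemia line, treated the same way in 3 libraries against 3, with its own controls. The decitabine effect was more positive in ELF-153 for 3011 genes (17.1% of those tested) and more negative for 1533 (8.71%). This lean rests on the scaling: the counts were 2343 and 2048 with TMM scaling, 2240 and 2186 with upper-quartile scaling and 1984 and 1897 with edgeR, and the median line difference of all genes moved from 0.19 to 0.00, -0.05 and -0.03. Interferon-stimulated genes differed between the lines, with 47 of 60 more positive in ELF-153 and 0 more negative, and 44 and 0 with upper-quartile scaling. Of this list 5 were higher and 17 lower in UCSD-AML1, where the median log2 change was -0.42. Untreated means of 58 of the 60 were higher in UCSD-AML1 than in ELF-153. IFI44L had means of 1.97 untreated and 495 treated in ELF-153, and 7029 and 3799 in UCSD-AML1, and IRF9 99.7 and 768 against 452 and 661. OASL had a line difference of 6.55 ± 0.35, adjusted p = 4.8e-08, IRF9 2.39 ± 0.23, adjusted p = 1.6e-05 and IFIH1 3.34 ± 0.39, adjusted p = 9.0e-05. Replication genes fell less in ELF-153, with 25 of 40 more positive and 0 more negative, and median log2 changes of -1.67 and -2.98 in UCSD-AML1. With upper-quartile scaling 19 were more positive and 0 more negative. All but 1 of the 10 tested MAGE genes rose more in ELF-153 by limma, whereas edgeR called 1 and DESeq2 2. The exception, MAGEC2, reached means of 158 treated reads in ELF-153 and 107 in UCSD-AML1. Platelet genes were mixed, with 6 and 2 of 21 cytoskeletal genes more positive and more negative, and 4 and 6 of 19 granule genes. With edgeR these counts were 3 and 2, and 3 and 4. KLF1 rose more in UCSD-AML1, with log2 changes of 3.18 and 7.58 (line difference -4.4 ± 0.57, adjusted p = 1.8e-04).

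**Figure D5:**
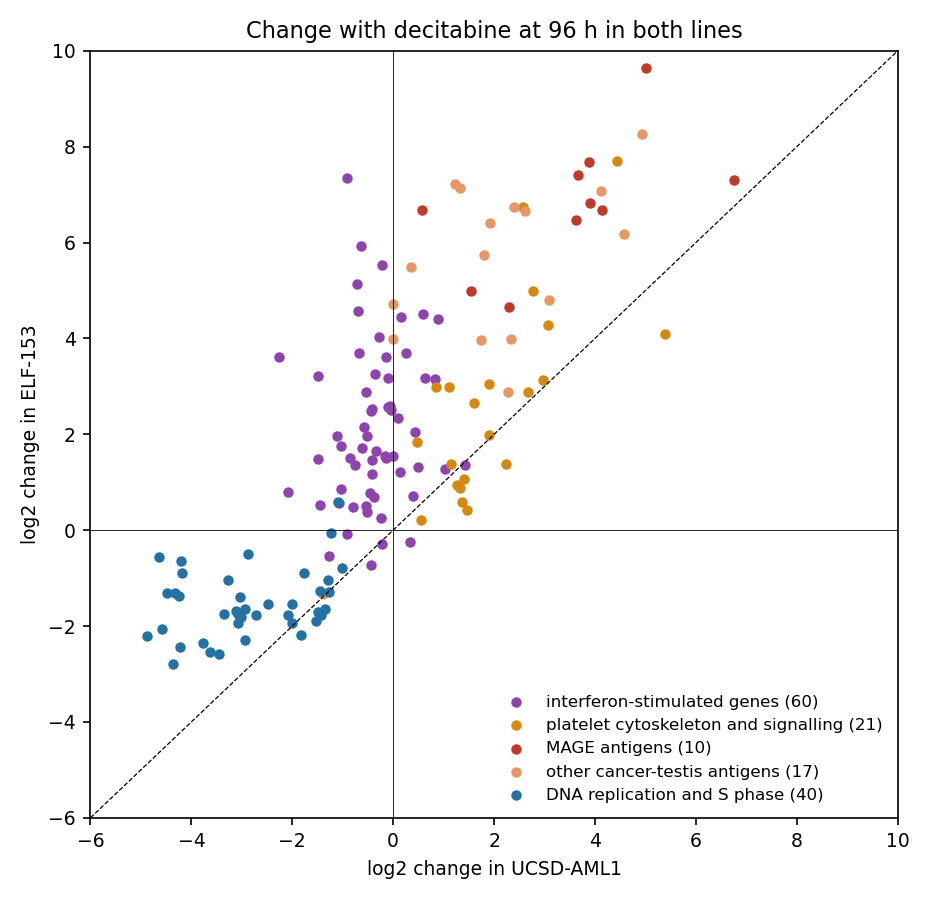
Log2 change with decitabine at 96 h in ELF-153 (vertical) against UCSD-AML1 (horizontal) for the tested members of 5 gene lists, with a dashed line where both are equal. Interferon-stimulated genes spread upwards near 0 on the horizontal axis, and most replication genes lie further below 0 in UCSD-AML1 than in ELF-153.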

How the data were processed

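RNA of the cell line ELF-153 was sequenced after 96 h with and without decitabine, and the 6 libraries were fitted together with the 6 of UCSD-AML1 from the same table. The deposited gene table holds a signal per transcript, which by its values is whole reads divided by 1 factor per library: 100% of the values in each library were whole multiples of 1 step, within 0.01 of a step. Which tool the authors used at which step is not given in the labels or headers. The submitters' processing notes name FastQC, TopHat2, STAR, HTSeq and DESeq2 without versions, and the build hg19. Where counts had been foreseen, the scaled values were therefore tested on the log2 scale. Transcripts were summed to genes through the GENCODE annotation given (181859 of 204940 transcripts matched, 97.8% of the summed value), and the unmatched rest was not used.

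Genes at 10 or more scaled reads in at least 3 of the 12 libraries were tested on log2(value + 1) with limma 3.58.1 in R 4.3.3 (trend, robust, 4 groups sharing 1 estimate of spread) with Benjamini-Hochberg adjustment over 17609 genes. A fold change on this scale understates the change of low genes. Whole reads were recovered for edgeR 4.0.16 and DESeq2 1.42.0 as alternatives, and edgeR called 3354 genes higher and 2599 lower. Other alternatives changed scaling, filter, pseudocount, libraries fitted, transcripts summed and covariates. Repeat families, from a deposited table scaled separately by the authors, were put on the gene table's scale, leaving out 1 RNA gene. The fit was tested on simulated data with known changes of 1.5, 2 and 4-fold. It recovered 0, 11.9 and 77.3% of them for the decitabine effect and 0, 0 and 37.9% for the line difference. Of unchanged genes 0.03% and 0.01% were called. A gene not called may therefore have changed. Only 66 or 67 genes were changed at each size, far fewer than were called in the data. Promoter windows and their motifs came from RefSeq tables for GRCh38.p14, matched by symbol.

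Genes were named by rank within fixed rules: the largest protein-coding, noncoding and repeat changes, up to 6 called and 3 uncalled members of each list, any member of a list of 22 or fewer, and genes read only after treatment. ALAS1, ALAS2, CD33, CD34, CEBPA, CTSG, DDX4, PIWIL1, HLF, SPINK2, IFIT1, IFI6, MECOM, MPO, PRTN3, MGMT, SETDB1 and TRIM28 fall outside these and were chosen after their values were seen. Some genes that these rules name are not reported here. The members and lists were chosen with earlier results of these data known.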

Additional observations from a re-analysis of the deposited data

Results flagged for a closer look

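The decitabine effect differed between ELF-153 and UCSD-AML1 by limma's test of the difference for 3011 genes more positive and 1533 more negative in ELF-153. Genes among those with the largest differences in each direction follow, in scaled reads and as differences of log2 changes.

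HIST1H4C had means of 18.03 untreated and 2336 treated in ELF-153 and 19119 and 3417 in UCSD-AML1 (line difference 9.60 ± 0.47, adjusted p = 1.7e-08). This histone gene rose in ELF-153 and fell in UCSD-AML1 to a similar treated mean, and its reads can be shared with other copies. IFI44L had means of 1.97 untreated and 495 treated in ELF-153 and 7029 and 3799 in UCSD-AML1 (line difference 8.25 ± 0.40, adjusted p = 1.7e-08). STAB1 had a line difference of 7.88, from 3900.3 to 8961 in UCSD-AML1, where it was read before treatment. The imprinted gene MKRN3 differed by 7.01 and was near 373 in UCSD-AML1 before treatment. RAG2 had means of 0.341 untreated and 1.45 treated in ELF-153 and 143 and 0.984 in UCSD-AML1 (line difference 6.97 ± 0.98, adjusted p = 3.2e-04). RAG2, of the antigen receptor recombinase, was near 0 in ELF-153 in both groups, so this difference is that of UCSD-AML1.

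SYNDIG1 had means of 571 untreated and 87.9 treated in ELF-153 and 0.611 and 36.6 in UCSD-AML1 (line difference -7.41 ± 0.51, adjusted p = 7.6e-07). Here the lines moved towards each other. PTGIS had means of 0.304 untreated and 2.55 treated in ELF-153 and 0.263 and 372 in UCSD-AML1 (line difference -7.11 ± 0.86, adjusted p = 1.1e-04), and this prostacyclin synthase gene was near 0 in ELF-153. HAPLN1 and XKR4 were also near 0 in ELF-153 in both groups and reached 126 and 344 treated in UCSD-AML1. Their line differences were -6.70 and -6.56. IGSF10 had means of 539 untreated and 246 treated in ELF-153 and 0 and 43.98 in UCSD-AML1 (line difference -6.48 ± 0.48, adjusted p = 1.8e-06). Fitted differences of genes near 0 depend on the 1 added to each value.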

How the results depend on the processing

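Of 224 genes named as called, 189 kept their direction and side of the threshold under every alternative in which they were tested. Only 215 of the 224 were tested without retained-intron and processed transcripts, and 221 with the filter on the 6 ELF-153 libraries. The mitochondrial ribosomal share as a covariate gave 2126 genes higher and 1350 lower, of which 1703 and 781 were also called without it, and moved the median of all genes to 0.00. Under it FECH (-0.048), JUND (0.63) and CEBPB (0.81) changed sign. The cause was not tested. A 2-fold minimum left 2796 genes higher and 1375 lower. Leaving out single libraries gave 2775 to 3967 genes higher and 1773 to 2335 lower. edgeR gave 1984 genes more positive in ELF-153 and 1897 more negative, in place of 3011 and 1533. Of 665 alternatives to the 35 list counts of 8 or more, 624 were within 1.5 times. Families of repeats higher were 55 and lower 1 with only the ELF-153 libraries fitted, and 92 and 71 on the deposited scale, where the size factors differ. Without single libraries they were 110 to 494 and 4 to 9. With a replicate block, 4206 genes were higher and 2502 lower, and repeat families 623 and 16. Same-numbered libraries had deviations correlated at 0.301, 0.327 and -0.037. Libraries 1 and 2 of both groups correlated best with their own number, and library 3 of neither group did. These few values cannot settle whether the numbers pair the libraries. Small changes of genes with few reads are limited by depth and by 3 libraries a group.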

Other observations

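Further gene groups are given beside the 20.7% higher and 12.9% lower of all genes. Nuclear genes of the respiratory chain had 5 of 78 tested higher and 9 lower (median log2 change -0.04), and 1 and 3 when the mitochondrial ribosomal share was a covariate. The count higher was 3 without treated library 1 or 2. The mRNAs encoded by the mitochondrial genome had 2 of 13 tested higher and 0 lower (median log2 change 0.41), but 0 higher and 7 lower with the covariate, where the median was -0.90, so their direction turned. Polycomb and other chromatin regulators had 3 of 24 tested higher and 3 lower, and host genes of small nucleolar RNAs 5 of 21 tested higher and 5 lower, with 1 higher with the covariate, 2 without treated library 2 and 3 without untreated library 2. Receptors of blood growth factors, which relay cytokine signals, had 5 of 12 tested higher and 2 lower, and 1 was higher with only the 6 ELF-153 libraries fitted. IL7R, the interleukin 7 receptor, rose from 1.56 ± 1.88 to 33.03 ± 13.5 (log2 change 3.94 ± 0.42, adjusted p = 8.7e-06), and IL2RA, a chain of the interleukin 2 receptor, fell from 589.9 ± 64.8 to 316 ± 5.49 (log2 change -0.89 ± 0.19, adjusted p = 0.0026).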
